A study of Mus musculus with 2 samples.

Results

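The regions described here are the wide TCF1 intervals, a set of 982 among the 101290 autosomal intervals (104683 in the whole list) that were deposited for 1 TCF1 chromatin immunoprecipitation library. They were chosen by their measured width, 1000 bp or more, and by a height below 90, where height is the deposited score per 50 bp of width. The library came from mouse thymocytes sorted as γδ T cells that were CD24+ and CFPlo/-. All cells were of the strain C57BL/6 and shared 3 alleles: TCRbeta KO, which removes the β chain of the αβ T cell receptor, Sox13tg+, a transgene for SOX13, and Sox13 ECFP KI/+, a cyan reporter in 1 copy of the Sox13 gene. The sources used here do not give the promoter of the transgene, the age of the mice or the number pooled. An input library without antibody belongs to the series but was not analysed here, and no value below has a measured background.

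TCF1, the product of Tcf7, is an HMG-box protein that binds the minor groove of DNA, bends it, and can pair with β-catenin at the end of the Wnt pathway. It is needed at several steps of T cell development in the thymus. SOX13 is another HMG-box protein, known for its part in γδ T cells that make IL-17. The width of an interval in such a map depends on fragment length, on how the signal spreads along the chromatin and on how a peak caller joins neighbouring bins, a rule that the sources used here do not give. Library fragments measured 300 to 500 bp per the labels' protocols, so each of the 982 regions was at least 2 times as long as the longest fragment selected. With 1 library and no replicate, every difference below is a description. The 95% intervals cover counting error only and treat regions as independent, which makes them too narrow where regions cluster, and no test was made. The genes and sequences under these regions were not analysed here.

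Wide regions were the thin upper end of a distribution of widths that fell without a break from the commonest widths to about 1100 bp. Among autosomal intervals with a height below 90, 224 were 950 bp wide, 202 were 1000 bp and 164 were 1050 bp, so the limit of 1000 bp fell on no gap in the data. Of the 982 regions, 648 were at most 1200 bp wide, 133 reached 1500 bp, 22 reached 2000 bp and 1 exceeded 3000 bp. The median width was 1100 bp (quartiles 1050 and 1300 bp), against 200 bp for all autosomal intervals. At the height limit, the members just inside had heights of 88.1, 88.1 and 89.0, and the intervals just outside had 92.7, 94.6 and 95.3. The regions made up 0.969% of autosomal intervals, 4.49% of the bases that these covered and 5.80% of their summed score. They covered 1.20 Mb.

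**Figure D1:**
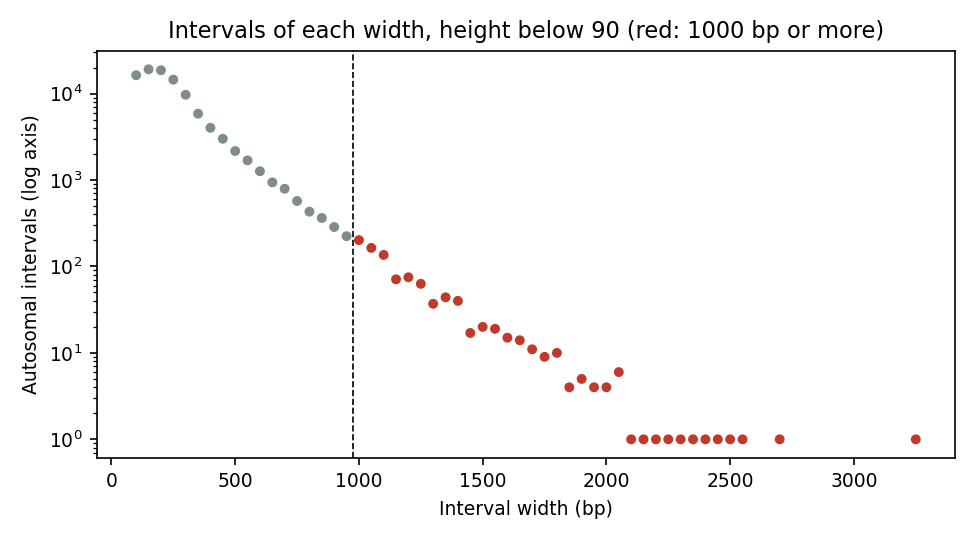
Number of autosomal intervals of each width (bp, in steps of 50 bp) among those with a height below 90, on a log axis. Red points are the 982 regions of 1000 bp or more. The counts run on across the dashed limit, from 224 at 950 bp to 202 at 1000 bp.

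The wide regions stood higher than intervals of 200 bp as well as being longer. Their median height was 54.7 (95% interval 53.9 to 55.8), and the quartiles were 46.8 and 61.9. The 18678 intervals of 200 bp had a median of 32.7 (32.4 to 33.0), with quartiles at 22.1 and 42.5. Of the wide regions, 910 (92.7%) lay above that median. The quartiles also lay closer together among the wide regions. Between 45 and 65, a band around the wide median chosen after the data were seen, lay 608 wide regions (61.9%) and 18.2% of the 200 bp intervals. The median of the 200 bp intervals lies below this band, so these shares do not compare the spread. Only 59 wide regions (6.01%) were below 30, against 42.8% of the 200 bp intervals. The medians were higher for wide regions on 19 of 19 autosomes. Height took part in the choice of the regions, so these values carry no weight as evidence.

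Most of this rise in height came below 1000 bp. The median height went from 25.2 at 100 bp to 32.7 at 200 bp, 46.3 at 450 to 500 bp and 53.2 at 750 to 800 bp. It was then 54.1 at 1000 to 1200 bp, 54.2 at 1250 to 1500 bp, 57.6 at 1550 to 2000 bp and 57.8 in the 18 widest (95% interval 55.1 to 67.0). The lower edge moved further than the middle. The 10th percentile was 11.1 at 200 bp, 34.4 at 1000 to 1200 bp, 44.98 at 1550 to 2000 bp and 41.4 in the 18 widest, while the 90th percentile lay between 69.3 and 70.9 in the classes from 1000 bp on. Within the 982 regions, width and height were only weakly related (Spearman rho 0.11 across regions, which come from 1 library).

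**Figure D2:**
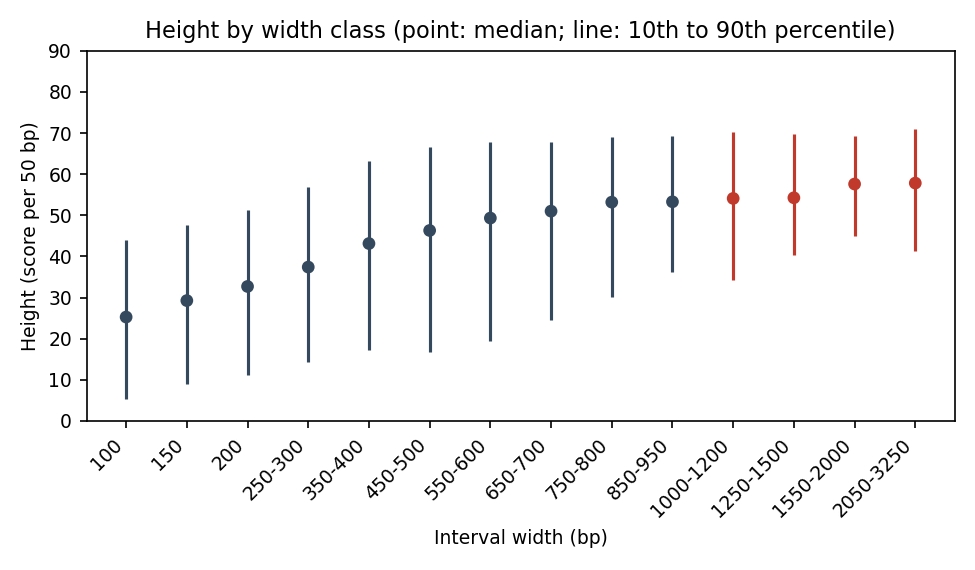
Height (score per 50 bp) by width class in bp, for autosomal intervals with a height below 90. Points are medians and lines run from the 10th to the 90th percentile; red marks the wide regions. Medians rise from 25.2 at 100 bp to 53.2 at 750 to 800 bp and lie between 53.3 and 57.8 in the wider classes, while the 10th percentile is 30.01 at 750 to 800 bp and between 34.4 and 44.98 in the classes from 1000 bp on.

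Wide regions occurred on all 19 autosomes, in numbers that followed those of the other intervals. Chromosome 4 held the most, 79, and chromosome 16 the fewest, 24. Per Mb of the span of listed intervals, chromosome 11 had 0.589 wide regions (95% Poisson interval 0.459 to 0.744), chromosome 17 had 0.575 (0.431 to 0.752) and chromosome 12 had 0.541 (0.417 to 0.691). Chromosome 3 had 0.230 (0.161 to 0.318) and chromosome 16 had 0.252 (0.162 to 0.375). The mean was 0.413 ± 0.110 per Mb (SD over 19 autosomes). As a share of each chromosome's own intervals, wide regions ran from 0.745% on chromosome 3 (95% Clopper-Pearson interval 0.522 to 1.03%) to 1.47% on chromosome 12 (1.14 to 1.88%). For 18 of 19 autosomes that interval held the pooled share of 0.969%. The exception was chromosome 12.

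**Figure D3:**
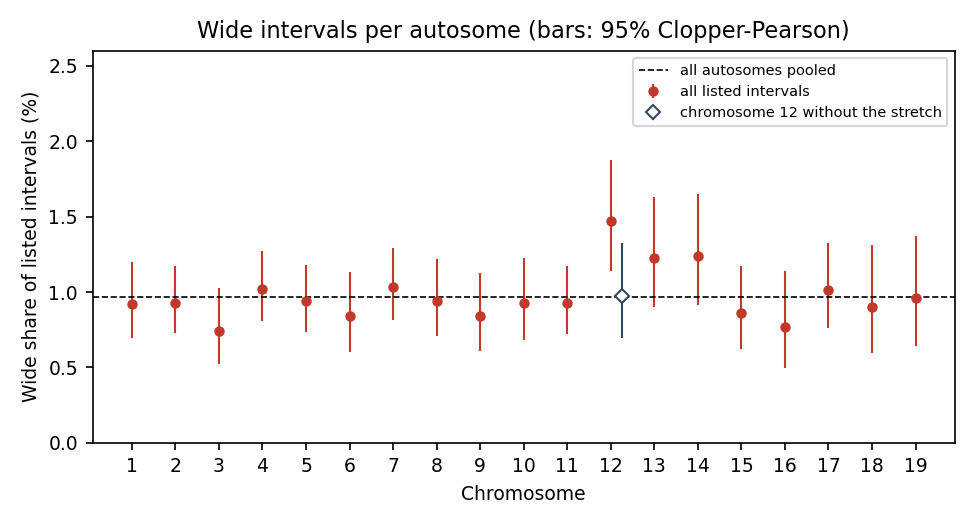
Wide regions as a share of the listed intervals of each autosome (%), with 95% Clopper-Pearson intervals; the dashed line is the pooled share of 0.969%. Chromosome 12 lies above it at 1.47%, and at 0.975% (open diamond) without its stretch from 18 to 25 Mb.

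The excess on chromosome 12 came from 1 stretch. Between chr12:18000001-25000000, a span chosen after its values were seen, 24 of 240 listed intervals were wide (10%, 6.51 to 14.5%). The 8 Mb before it held 1 wide region among 222 intervals. That region, chr12:17999201-18000200, crosses the edge of the stretch and was counted by its start. The 8 Mb after the stretch held 0 among 229, which allows a share of up to 1.31% by 3 counts and 1.60% by the upper Clopper-Pearson limit. Outside the stretch, chromosome 12 had 40 wide regions among 4102 intervals (0.975%, 0.698 to 1.33%), close to the pooled share. Of 504 blocks of 5 Mb with a listed interval, 136 held 3 or more wide regions. Among these 136, chr12:20000001-25000000 had the highest share, 12.2% (19 of 156). The next was chr5:25000001-30000000 with 5.31% (6 of 113), and the median over these blocks was 1.42%. Blocks with fewer wide regions were left out, which tends to raise this median above the pooled share. The stretch was already chosen by its values, so its rank is a description only.

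The wide regions of this stretch were low and stood apart from other intervals. Their heights ran from 13.99 to 49.5, with a median of 35.6, so every one lay below the median of all wide regions. The rest of the stretch was low too: the 33 intervals of 200 bp there had a median height of 13.4, against 31.0 for the 40 before it and 33.0 for the 42 after it. The wide regions were 1000 to 1400 bp long and followed each other at a median step of 179600 bp. Of the 24, 13 had no other interval within 10 kb and 6 had one within 1 kb. The matching shares were 24.2% and 47.0% of all wide regions, and 28.5% and 30.7% of all autosomal intervals. Mean neighbours were 0.54 for the 24 and 1.21 for the 33 intervals of 200 bp. The stretch itself was not poor in intervals, with 34.3 listed per Mb against 27.75 before it and 28.6 after it. Examples among the 24 are chr12:19632751-19633750 with a height of 13.99, chr12:20995851-20997250 with 26.5 and chr12:22510251-22511250 with 32.6, whose nearest interval was 183900 bp away. The low heights and the high share of wide regions occurred together in this stretch, and no sequence, copy number or input value was used here to describe it further.

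At the scale of 1 Mb, most windows with a wide region held only 1. The wide regions fell in 694 of the 2416 windows that held any interval, and 499 of these windows held only 1. Thus 499 of the 982 regions were alone in their window, and the others shared it with another wide region. Only 23 windows held 4 or more. The wide share was lowest in the emptiest windows. It was 0.277% in windows with 1 to 9 intervals (2 of 722, 0.0336 to 0.997%), 0.627% with 10 to 19 (0.477 to 0.808%), 1.02% with 20 to 39 (0.903 to 1.16%), 1.12% with 40 to 79 (0.992 to 1.25%) and 0.933% with 80 or more (0.842 to 1.03%). The share of 200 bp intervals moved between 17.2% and 19.4% over the same classes.

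The windows with the most wide regions differed in what surrounded them. The window chr10:80000001-81000000, in the most interval-rich part of the map, held 8 among 417 intervals, and chr10:79000001-80000000 held 5 among 418. In chr7:51000001-52000000 there were 6 among 159, each with 4 to 18 neighbours within 10 kb and heights from 50.3 to 71.9. In chr12:20000001-21000000 there were also 6, but among 47 intervals, with 0 to 3 neighbours and heights from 18.1 to 48.0. The window chr11:115000001-116000000 held 5 among 260, with heights from 52.0 to 71.6. Windows on chromosomes 12, 15, 9 and 14 also held 5 each. Windows were ranked here by count, which favours those with many intervals. Over all windows with 80 or more intervals, 375 of 40173 intervals were wide (0.933%). In those with 40 to 79 it was 292 of 26182 (1.12%).

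Over 10 kb, a wide region had only slightly more neighbours than an interval of 200 bp. A neighbour is a listed interval whose midpoint lies at most 10 kb from the midpoint. Wide regions had a median of 2 (95% interval 1 to 2, quartiles 1 and 4) and a mean of 2.61 (2.51 to 2.71). Intervals of 200 bp had a median of 1 (1 to 1, quartiles 0 and 3) and a mean of 2.41 (2.39 to 2.44). The SD was 2.92 for wide regions and 2.83 for 200 bp intervals, wider than Poisson counts with these means would give. The Poisson intervals of mean neighbours, here and below, are therefore too narrow. The difference in means was 0.196, and its sign varied between chromosomes, with the wide regions ahead on 12 of 19 autosomes (from -0.65 on chromosome 12 to 1.46 on chromosome 18). No neighbour was found for 24.2% of wide regions (238, 21.6 to 27.0%), for 28.2% of 200 bp intervals (27.6 to 28.9%) and for 28.5% of all autosomal intervals. The share with 10 or more neighbours was 3.46% (2.41 to 4.80%) and 3.28% (3.03 to 3.55%).

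The difference lay in the immediate flanks. Another interval stood within 1 kb, edge to edge, of 462 of the 982 wide regions (47.0%, 43.9 to 50.2%), against 28.5% of 200 bp intervals (27.8 to 29.1%) and 30.7% of all autosomal intervals. The wide regions were ahead on 19 of 19 autosomes, by 6.02 to 36.3 percentage points. Within 200 bp the shares were 22.8% (20.2 to 25.6%) and 9.11% (8.70 to 9.53%). The median gap to the nearest interval was 1300 bp (950 to 1800) for wide regions and 3550 bp (3400 to 3650) for 200 bp intervals. By width class, the share with a neighbour within 1 kb grew from 25.3% at 100 bp through 38.6% at 450 to 500 bp and 45.7% at 850 to 950 bp to 47.1% at 1000 to 1200 bp. It was 44.8% at 1250 to 1500 bp (38.1 to 51.6%), 50.5% at 1550 to 2000 bp (40.1 to 60.9%) and 55.6% in the 18 widest (30.8 to 78.5%), and the intervals of the 4 classes from 1000 bp on overlapped.

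Counted by distance, the flanks of wide regions were crowded only close by. In the first 500 bp from the edge there were 442 listed intervals per Mb of flank (95% Poisson interval 401 to 486), against 218 (212 to 225) around 200 bp intervals, a ratio of 2.02. From 500 to 1000 bp the ratio was 1.42, from 1 to 2 kb 1.15 and from 2 to 5 kb 1.05. From 5 to 10 kb the densities were 109 and 112 per Mb, a ratio of 0.972, and from 10 to 50 kb the ratio was 0.983. From 50 to 500 kb the densities were 81.1 and 80.3, a ratio of 1.01.

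At heights of 45 to 65, the flanks of wide regions beyond 1 kb were sparser than those of 200 bp intervals. Between these limits, chosen after the data were seen, 608 wide regions had a mean of 2.62 neighbours within 10 kb (2.50 to 2.76). The 3400 intervals of 200 bp had 3.47 (3.40 to 3.53), a difference of -0.84. Over all heights the means were 2.61 and 2.41, so it was mainly the 200 bp mean that changed. The mean of 200 bp intervals went from 0.933 below a height of 10 to 3.64 at 60 to 70, and was 2.64 at 80 to 90. No neighbour was found for 24.5% of the wide regions (21.1 to 28.1%) and 16.2% of the 200 bp intervals (15.01 to 17.5%). The first 500 bp were still denser around the wide regions, with 456 against 274 per Mb, a ratio of 1.66. From 1 to 2 kb on they were sparser at every distance measured, with ratios of 0.786, 0.717 at 2 to 5 kb, 0.649 at 5 to 10 kb, 0.734 at 10 to 50 kb and 0.804 at 50 to 500 kb. The lower mean number of neighbours did not hold at every height. By height class of 10, the mean number of neighbours was lower for wide regions at 10 to 20 and in each class from 30 to 70, and nearly equal at 70 to 80 (3.27 against 3.29). It was higher for the 3 wide regions below 10, at 20 to 30 (2.36 against 2.02, with 36 wide regions) and at 80 to 90 (3.17 against 2.64, with 18). Over all heights, the difference in mean neighbours also became negative when intervals within 1 kb of each other were first joined (-0.21).

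**Figure D4:**
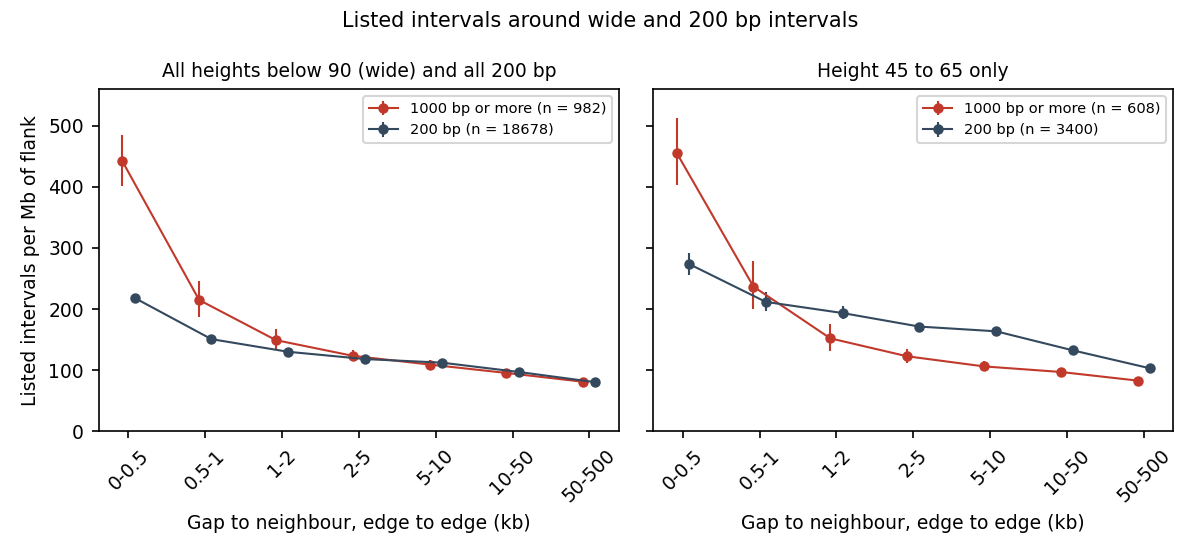
Listed intervals per Mb of flank against the gap from the edge of the interval (kb), with 95% Poisson intervals, for wide regions (red) and 200 bp intervals (dark). Left, all heights: 442 against 218 per Mb in the first 500 bp, and like values from 5 kb on. Right, heights of 45 to 65 only: 456 against 274 in the first 500 bp, and lower values for wide regions from 1 kb on.

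Intervals that flanked a wide region within 1 kb were ordinary in width and lower than it. Counted for each side of each wide region, there were 554 flanking cases, with a median width of 250 bp (quartiles 200 and 400 bp) and a median height of 40.4. An interval between wide regions counts for each of them, and wide regions can flank each other, so the cases are not independent. The flanking interval was the lower of the pair in 433 of 554 cases (78.2%, 74.5 to 81.5%). Around 200 bp intervals, 6181 flanking cases were counted in the same way. Their flanking intervals had the same median width, 250 bp, a like median height, 39.2, and were lower in 43.3% of cases. The flanked intervals themselves had median heights of 54.5 (wide) and 36.0 (200 bp). Wide regions were flanked on both sides in 92 cases.

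Few wide regions lay within 10 kb of each other, though more often than other intervals lay that close to a wide region. Another wide region was found within 10 kb, midpoint to midpoint, for 47 of 982 (4.79%, 3.54 to 6.31%). A wide region lay that close to 428 of the 18678 intervals of 200 bp (2.29%, 2.08 to 2.52%) and to 2.40% of all autosomal intervals. After joining all intervals with gaps of at most 1 kb, the wide regions fell into 969 joined places, of which 520 consisted of the wide region alone and 13 held 2. Joined places of 1 kb or more numbered 8364. In 7384 of these no single interval reached 1 kb, and 11.6% of the 8364 held a wide region. The 7384 were rows of narrower intervals, typically 2. Their length includes the gaps of up to 1 kb, so this number depends on the joining rule and does not measure the length of the signal.

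The widest regions were scattered over the genome and differed in height and company. The widest of the 982, chr11:82743601-82746850, was 3250 bp long with a score of 3234 and a height of 49.7, and had 1 neighbour within 10 kb. The next, chr18:20773951-20776650, was 2700 bp long but low, at 27.0, with 7 neighbours. The region chr16:35154601-35157150 measured 2550 bp with a height of 55.1 and began 50 bp after another interval. A longer autosomal interval, chr17:39979751-39984200 (4450 bp), had a height of 8712 and was left out by the height limit.

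The other 7 of the 10 widest lay between 2200 and 2500 bp. On chromosome 9, chr9:62991901-62994400 had a height of 60.2 and 9 neighbours, and chr9:114471351-114473600 had 47.5 and 3. The region chr14:80168201-80170650 had a height of 67.3 and an interval 250 bp away. The region chr3:58218801-58221200 had the highest score of all wide regions, 3420, with a height of 71.3, and stood alone, 36250 bp from the nearest interval. The remaining 3 were chr13:60276951-60279300 (height 58.4), chr12:109153351-109155650 (67.0) and chr4:132617201-132619400 (56.6, with intervals 300 bp before and 250 bp after it). The number of neighbours of these 10 ran from 0 to 9.

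The wide regions with the most neighbours were not among the 10 widest. The region chr7:51796151-51797250 had 18 within 10 kb, was 1100 bp long and had a height of 51.3. The region chr15:98692001-98693000 had 17, a width of 1000 bp and a height of 40.1. Next came chr5:124446851-124448150 with 16 (1300 bp, height 52.0), chr10:80606951-80608050 with 16 (1100 bp, 63.0) and chr8:72404801-72406500 with 15 (1700 bp, 80.9). Each had another interval within 400 bp. Across the 982 regions the number of neighbours was only weakly related to width (Spearman rho 0.08) and to height (0.10).

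The 3 longest of the 13 joined places with 2 wide regions lay on chromosomes 18, 5 and 10. The longest with any wide region measured 8750 bp. On chromosome 18 the second widest region was followed by chr18:20777751-20778750, with a height of 28.5, in a row of 6 intervals that covered 81.7% of 7100 bp. On chromosome 5, chr5:111845501-111847100 (height 42.6) and chr5:111847201-111848800 (52.0) were both 1600 bp long and lay 100 bp apart. On chromosome 10, chr10:80610601-80611800 (54.4) and chr10:80612251-80613550 (33.0) lay 450 bp apart, in a row of 6 intervals over 5150 bp.

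The heights of the wide regions ran from 6.84 to 89.0. The highest 3 wide regions, chr4:146034251-146035500 (89.0), chr8:125004001-125005100 (88.1) and chr3:90268601-90269750 (88.1), stood just under the height limit. The lowest 3 were chr11:99750401-99751500 (6.84), chr4:9513001-9514000 (8.40) and chr9:79748451-79749550 (8.67), and each had another interval within 150 bp. The 59 regions under a height of 30, a limit chosen after the data were seen, were spread over 19 autosomes, with 9 on chromosome 12, 7 of them in the stretch from 18 to 25 Mb, and 8 on chromosome 13. An interval within 1 kb was found for 30 of these 59 (50.8%, 37.5 to 64.1%) and for 432 of the other 923 (46.8%, 43.5 to 50.1%), and these 2 intervals overlapped.

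The deposited list was sorted neither by position nor by score, and the sources used here do not say what its order stands for. Most wide regions lay early in it. Their median place was 13640 (95% interval 12690 to 14534), against 54988 for 200 bp intervals (54568 to 55397) and 52535.5 for all autosomal intervals. Among the first 10000 places were 362 of them (36.9%), against 2.11% of 200 bp intervals and 9.37% of all autosomal intervals. Across all autosomal intervals, place and width were related with a Spearman rho of -0.75. The low wide regions lay earlier at the median: the median place was 1502 (946 to 3188) for the 59 under a height of 30 and 14226 (13368 to 15007) for the other 923. The places of these sets overlapped, from 62 to 28874 for the low regions and from 5 to 72124 for the others. From a height of 30 up to 80, the median place of wide regions by class of 10 stayed between 13428 and 14686. Among 200 bp intervals the low ones lay earlier too. Height and place had a Spearman rho of 0.37 across 200 bp intervals and 0.11 across wide regions. The median place of 200 bp intervals was 33878 below a height of 10, 40172 at 10 to 20 and 62253 at 40 to 50. The wide regions of the chromosome 12 stretch had a median place of 2658.

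**Figure D5:**
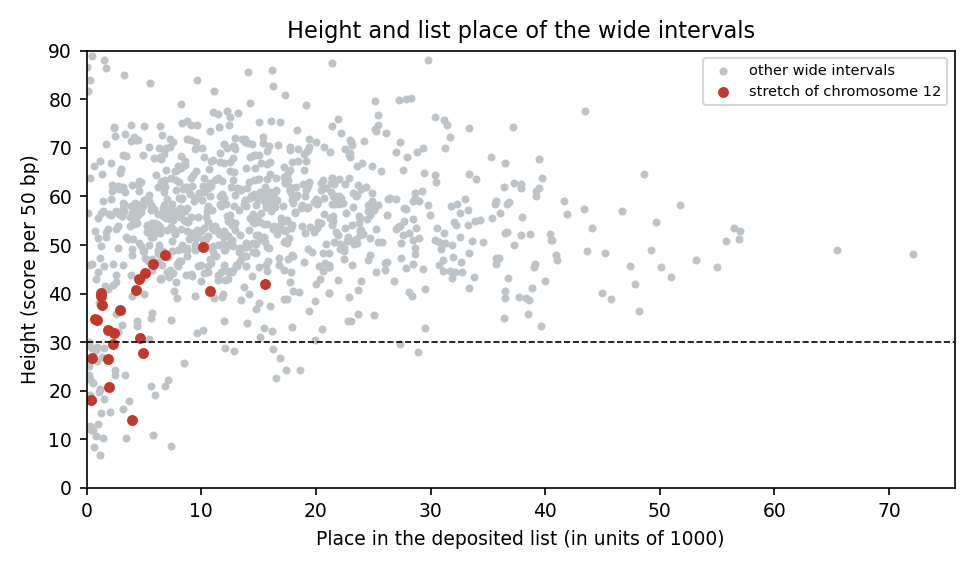
Height (score per 50 bp) of the 982 wide regions against their place in the deposited list (in units of 1000). Red points are the 24 regions of chromosome 12 from 18 to 25 Mb, with a median place of 2658; below the dashed line at a height of 30 lie 59 regions, with a median place of 1502.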

How the data were processed

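The data were 1 list of genomic intervals for 1 TCF1 library. The authors deposited 1 score per interval, with no header; its meaning, the aligner, the peak caller, its threshold and any use of the input were not given in the sources used here. Coordinates are on mm9, per the submitters' processing notes. All starts were multiples of 50 bp and ends 1 bp short of one (100% of autosomal intervals), so ends were read as inclusive and positions are counted from 1. The number of reads is unknown. Intervals of 200 bp of any height served for comparison. Shares have exact Clopper-Pearson intervals, counts exact Poisson intervals and medians order-statistic intervals (95%). The members and all comparisons were chosen with earlier results of these data known. The regions named are the 10 widest, the 5 with the most neighbours, the 3 highest and 3 lowest, the 5 fullest windows of 1 Mb and the pairs in the 3 longest joined rows that held 2 wide regions; those of chromosome 12 from 18 to 25 Mb were added after their values were seen. The gene table at hand is of another build, so genes, start sites, base composition and motifs were not analysed here. The neighbour and gap measures were tested on simulated data, with 0 mismatches over 6000 intervals. Python 3.11.15, scipy 1.17.1, pandas 2.3.3, matplotlib 3.10.9 and numpy 2.4.6 were used.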

Additional observations from a re-analysis of the deposited data

How the results depend on the processing

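Of 69 alternative values, 41 stayed within 1.5 times (counts) or inside the 95% interval of the main value, 26 moved and 2 changed sign. Of the 41, 2 changed only the 200 bp comparison set of a median that does not use it and could not move. With a lowest width of 800 bp there were 2287 regions in 1189 windows, with a median height of 53.9, a median share per autosome of 2.21% (main 0.930%), 2.86% on chromosome 12 and 8.92% with another wide region within 10 kb. With 1500 bp these were 133, 126, 57.2, 0.134%, 0.207% and 3.01%, 19.5% had no neighbour, and the differences from 200 bp intervals were 0.542 in mean neighbours and 23.4 percentage points in the share with an interval within 1 kb (main 18.6). Reading ends as exclusive gave 0.736% per autosome. Counting neighbours within 5 kb, 36.9% of wide regions had none and 3.26% had a wide one. Within 20 kb these were 14.1% and 7.23%, the median was 3 and the difference in means was 0.0801. Edge to edge the difference was 0.327. It became -0.205 after joining intervals within 1 kb and -0.842 at heights of 45 to 65. At those heights the difference in the share with an interval within 1 kb was 11.98 points. Over all heights, with gaps up to 2 kb in place of 1 kb, it was 14.5 (main 18.6). Without chromosome 12 from 18 to 25 Mb the chromosome's share was 0.975%, and the other values recomputed without that stretch stayed inside their intervals. The comparisons of means, of shares within 1 kb and of chromosome 12 were added after the data were seen. The interval of the difference in mean neighbours is too narrow, so its values may count as moved too readily. The cause of these shifts was not tested. No paired analysis was possible because only 1 library had a file. Overlap with genes, start sites and motifs was not run. A region missing from the list does not show that TCF1 was absent, since the depth is unknown.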

Other observations

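Intervals of 1000 bp or more also occurred on the sex chromosomes, which the choice of regions left out. Chromosome X held 11 among 3200 intervals (0.344%, 95% Clopper-Pearson interval 0.172 to 0.614%), with heights from 27.6 to 59.6 and a median of 43.7. Chromosome Y held 9 among 193 (4.66%, 2.15 to 8.67%), all between chrY:2779551-2892900. They were 1100 to 2700 bp long, had heights from 7.58 to 22.2 and lay between places 14 and 2462 of the list. The pooled autosomal share was 0.969%.

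The height limit left out 12 autosomal intervals of 1000 bp or more. Of these, 5 had heights from 92.7 to 101, among them chr17:35576101-35577300 (94.6) and chr19:6633651-6634700 (101), the latter at place 40839 of the list. The other 7 ran from 199 to 8712. One of them, chr1:135279101-135280650, was 1550 bp long with a height of 205, 9 neighbours within 10 kb and place 58 in the list.

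Among rows of close intervals all narrower than 1000 bp, the longest lay at chr15:76004301-76014400, where 15 intervals of at most 950 bp, with gaps of at most 1 kb, covered 75.7% of 10100 bp. The longest row with a wide region measured 8750 bp.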
